A study of Mus musculus with 2 samples.

Results

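The LIM homeobox genes described here are Lhx1, Lhx2, Lhx5, Lhx6, Lhx8, Lhx9, Lmx1a, Lmx1b, Isl1 and Isl2, 10 of the 21774 protein-coding genes in the RefSeq table of GRCm38.p6. They were chosen by name, with earlier results of these data already known. Their peaks were those at either gene end (overlapping the 1 kb on each side of it), those inside the gene, and those in the flanks, within 20 kb of it. By this rule they held 22 of 21546 peaks. The study mapped the histone variant H2AZ by chromatin immunoprecipitation with sequencing (ChIP-seq) in brain neural progenitor cells from C57BL/6 mouse embryos taken at embryonic day 13. It had 1 H2AZ ChIP library and 1 input library, with no genetic or drug treatment named in the labels. The values are a single list of peaks, each with a position and the authors' own score, which ranks peaks within this list only and whose meaning the file does not name. There are no replicates and the number of reads is unknown, so every value describes this list and no test was made. A peak list does not measure expression, so the labelled cell type was not checked against marker genes.

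LIM homeobox proteins are transcription factors with a pair of LIM domains, which bind partner proteins, and a homeodomain, which binds AT-rich DNA. They act in combinations, bridged by Ldb cofactors, and are known for giving neurons and brain regions their identity, several of them in closely related pairs. H2AZ replaces H2A in some nucleosomes, is known for its place on either side of transcription starts, and has been found at both active and silent CpG-rich promoters.

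The sequences below show why the starts of these genes are considered one by one. They are the 250 bases upstream of the listed RefSeq start of 5 genes, on GRCm38.p6 and in the direction of transcription, with each CpG dinucleotide in capitals. Isl1 and Isl2 form a pair, as do Lmx1a and Lmx1b, and Lhx8 is the member whose listed start had no peak. Isl1 is chr13:116309689-116309938, minus strand, Isl2 is chr9:55540899-55541148, plus strand, Lmx1a is chr1:167689308-167689557, plus strand, Lmx1b is chr2:33641099-33641348, minus strand, and Lhx8 is chr3:154330561-154330810, minus strand.
Isl1: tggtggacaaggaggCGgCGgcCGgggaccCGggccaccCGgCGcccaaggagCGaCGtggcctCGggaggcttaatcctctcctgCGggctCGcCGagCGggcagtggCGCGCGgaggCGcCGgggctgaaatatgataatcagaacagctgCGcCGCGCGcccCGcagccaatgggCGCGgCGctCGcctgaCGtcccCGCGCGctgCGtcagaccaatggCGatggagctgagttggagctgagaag
Isl2: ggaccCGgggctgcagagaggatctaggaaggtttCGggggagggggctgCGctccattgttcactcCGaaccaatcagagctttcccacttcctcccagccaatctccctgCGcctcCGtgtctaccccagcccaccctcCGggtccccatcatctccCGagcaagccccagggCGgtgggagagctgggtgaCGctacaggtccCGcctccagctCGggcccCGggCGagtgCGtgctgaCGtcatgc
Lmx1a: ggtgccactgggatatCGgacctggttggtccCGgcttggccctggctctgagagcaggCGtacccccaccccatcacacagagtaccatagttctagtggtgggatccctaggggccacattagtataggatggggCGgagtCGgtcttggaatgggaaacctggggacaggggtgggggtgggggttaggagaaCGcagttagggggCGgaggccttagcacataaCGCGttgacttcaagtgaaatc
Lmx1b: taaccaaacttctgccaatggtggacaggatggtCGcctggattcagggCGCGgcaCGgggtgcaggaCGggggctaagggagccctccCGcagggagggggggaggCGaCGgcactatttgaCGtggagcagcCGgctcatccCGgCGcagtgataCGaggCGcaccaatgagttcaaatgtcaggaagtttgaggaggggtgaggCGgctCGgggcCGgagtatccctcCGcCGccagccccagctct
Lhx8: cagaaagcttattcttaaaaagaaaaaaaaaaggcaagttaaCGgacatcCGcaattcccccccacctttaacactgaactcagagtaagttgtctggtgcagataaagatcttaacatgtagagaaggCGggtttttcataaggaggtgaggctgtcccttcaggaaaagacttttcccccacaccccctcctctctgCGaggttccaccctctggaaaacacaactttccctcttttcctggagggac
Isl1 had 33 CpG in these 250 bases, Isl2 16, Lmx1b 19, Lmx1a 9 and Lhx8 4. The highest and the lowest of these counts belong to the member with the highest-scoring peak at its start and to the member with none there. Between them the scores did not follow the counts. The start peak scored 12.97 at Lmx1a with 9 CpG, 6.38 at Isl2 with 16 and 4.21 at Lmx1b with 19.

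H2AZ peaks lay at the starts of most LIM homeobox genes, most of them with a score below the median of the list. Start sites were listed for 9 members, and in 8 of them a peak covered at least 1 listed start, against 54.1% of the 17492 protein-coding genes with a listed start. Of the 12 listed starts 10 were covered, by 9 peaks. Most of the 12 had 10 or more CpG in the 300 bases around them, classes where 72.8 to 84.6% of all starts were covered. Counted by gene ends, 7 of 10 members had a peak, against 55.4% of all protein-coding genes and 63.7% of those between the shortest and the longest member (7.56 to 161 kb). Isl2 makes the counts by start and by gene end differ, since its listed start, with its peak, lies 2.472 kb inside the gene as the table draws it. The listed start of Lhx9 also lies inside, by 6.395 kb, and Lhx9 had separate peaks at the start and at the gene end. No member had a peak at its 3' end (0 of 9), against 7.29% of protein-coding genes.

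The scores of the 7 members with a gene-end peak all fell below the median of protein-coding genes with one. With windows of 5 kb this did not hold for Lhx1, where the Aatf peak of 19.69 then counted (median of all genes 17.3), and the value of Lhx9 became 9.55. In descending order the highest gene-end scores were 16.7 at Isl1, 12.97 at Lmx1a, 12.07 at Lhx1, 8.05 at Lhx2, 6.86 at Lhx6, 5.89 at Lhx9 and 4.21 at Lmx1b. Their median was 8.05, against 17.08 in the 12060 protein-coding genes that had such a peak (quartiles 12.9 and 21.2), and 5 of the 7 lay at or below that lower quartile. Isl1 stood at percentile 47.8 of those genes, Lmx1a at 25.3 and Lhx1 at 20.9, while Lhx2 stood at 6.04 and Lhx6 at 2.89. With 1 library, neighbours in this order have no replicate spread to be set against. Gene-end peaks at or above the list median score (11.93) were found at 3 members, against 44.4% of protein-coding genes. Widths of the 7 gene-end peaks ran from 1338 to 2321 bp with a median of 1501 bp, against 2180 bp over all peaks at protein-coding gene ends.

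**Figure D1:**
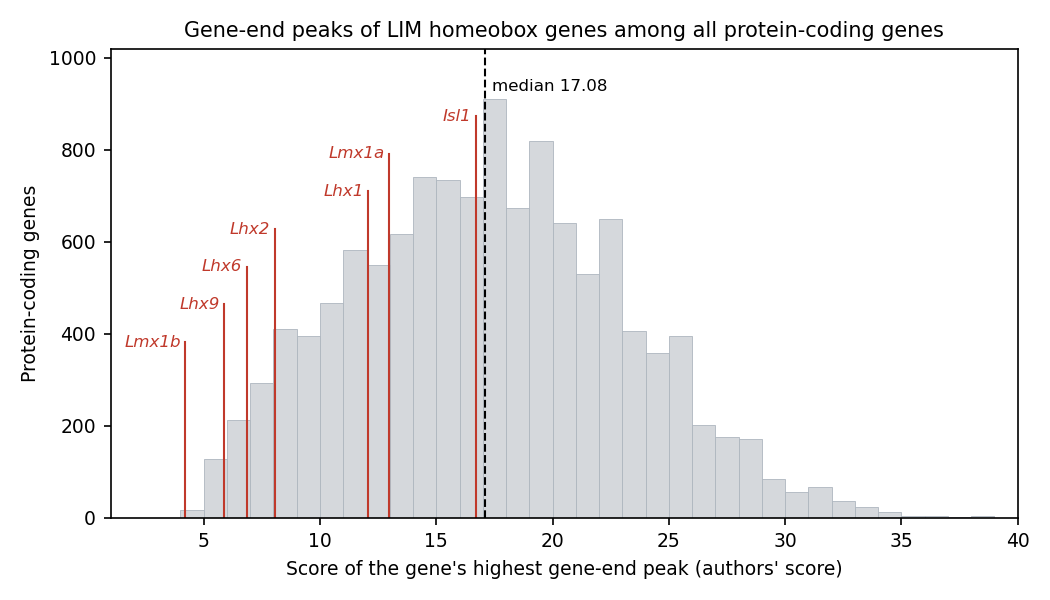
Protein-coding genes (vertical axis, number) by the authors' score of their highest gene-end peak (horizontal axis), with the 7 LIM homeobox genes that have one as red lines and the median of all genes, 17.08, dashed. All 7 lines lie left of the median, Isl1 nearest to it at 16.7 and Lmx1b farthest at 4.21.

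Isl1 and Isl2 had peaks in like places with different scores. Isl1, which specifies motor neurons and striatal neurons, had a single peak, chr13:116309130-116310722, of score 16.7 (rank 6415). It reached from 1034 bp upstream to 558 bp downstream of the start. Isl2, a motor neuron and retinal ganglion cell factor, also had a single peak, chr9:55540155-55541886, from 994 bp upstream to 737 bp downstream of its listed start, with a score of 6.38 (rank 19366). Both peaks thus lay over the start with the longer part upstream, and the score was higher at Isl1. Neither gene had a further peak within 20 kb, and the nearest listed peaks outside lay 320 kb below and 204 kb above Isl1 in coordinates.

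Lmx1a and Lmx1b, factors of the roof plate and of midbrain dopaminergic neurons (Lmx1b also of serotonergic neurons), each had a peak at the start and peaks far inside the gene. The start peak of Lmx1a, chr1:167688123-167689588, scored 12.97 and lay almost wholly upstream, from 1435 bp before to 30 bp after the listed start. That of Lmx1b, chr2:33639115-33641435, scored 4.21 and lay mostly downstream, from 337 bp before to 1983 bp after it. The Lmx1b peak was the widest of the 22 peaks of the 10 members (2321 bp) and the lowest in score, at rank 21524 of 21546. Only 2 protein-coding genes, Lmx1b included, had a highest gene-end peak of that score or less. It belongs to the lowest 1% of peaks by score, whose median width was 1715 bp and of which 9.09% lay at a protein-coding gene end. Inside Lmx1a 2 further peaks scored 8.35 and 12.21, with midpoints 72.4 and 113.6 kb downstream of the start, and inside Lmx1b 1 peak scored 11.59, at 24.6 kb. In Lmx1b the interior peak thus scored above the start peak, and in Lmx1a both interior peaks scored below it.

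Lhx2 and Lhx9 carried several peaks each. Lhx2, a selector gene of the cerebral cortex that keeps cortical progenitors from hem and antihem fates, had 5 peaks in its neighbourhood, a number reached by 4.05% of protein-coding genes (5 or more). Both of its listed starts were covered, the upstream start by chr2:38338850-38340350 with a score of 8.05 and the downstream start, 12.037 kb into the gene, by chr2:38350097-38352262 with a score of 5.26. Between them lay chr2:38347288-38348879 with 8.35, and the flanks held peaks of 8.24, 1854 bp from the gene, and 10.74, 9051 bp beyond the other end. All 5 scores were thus below the list median. Lhx9, known in gonad formation and in the diencephalon, had 3 peaks, all touching the gene. The peak at its listed start, chr1:138840670-138842528, scored 10.76 and reached from 84 bp upstream to 1774 bp downstream. A peak of 9.55, chr1:138843051-138844454, lay from 2010 to 607 bp upstream of the start, and the gene-end peak of 5.89, chr1:138847933-138849270, lay with its midpoint 6.157 kb upstream. In both genes the highest score was thus not at the outermost gene end.

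Lhx6 and Lhx8 act in neurons of the medial ganglionic eminence, Lhx6 in cortical interneurons and Lhx8 in cholinergic neurons of the basal forebrain. In Lhx6 the peak chr2:36104342-36105785, with a score of 6.86, covered 2 of 3 listed starts and missed the most downstream one. A second peak inside the gene, chr2:36090372-36092045, scored 8.05 at 14.2 kb from the most upstream start, and a flank peak of 6.56 lay 3881 bp beyond the other end, within Morn5. In Lhx8 the only peak, chr3:154327796-154328894, scored 11.33, began 1666 bp downstream of the listed start and ended at 2764 bp. It was also the narrowest peak touching a member, at 1099 bp.

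Lhx1 and Lhx5, which act in head organisation, the forebrain and Purkinje cells, differed in that Lhx1 had a peak over its start and Lhx5 had no listed peak. The Lhx1 peak, chr11:84524843-84526509, scored 12.07 and reached from 975 bp upstream to 691 bp downstream of the start. A second peak, 3418 bp beyond its other end, scored 19.69, the highest of the 22, but covered the start of Aatf, the neighbouring gene. Lhx5, chr5:120431886-120441457, had no listed peak at its ends, inside it or within 20 kb. The nearest listed peaks lay 21.1 kb below it in coordinates (score 6.56) and 34.3 kb above it (8.95).

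**Figure D2:**
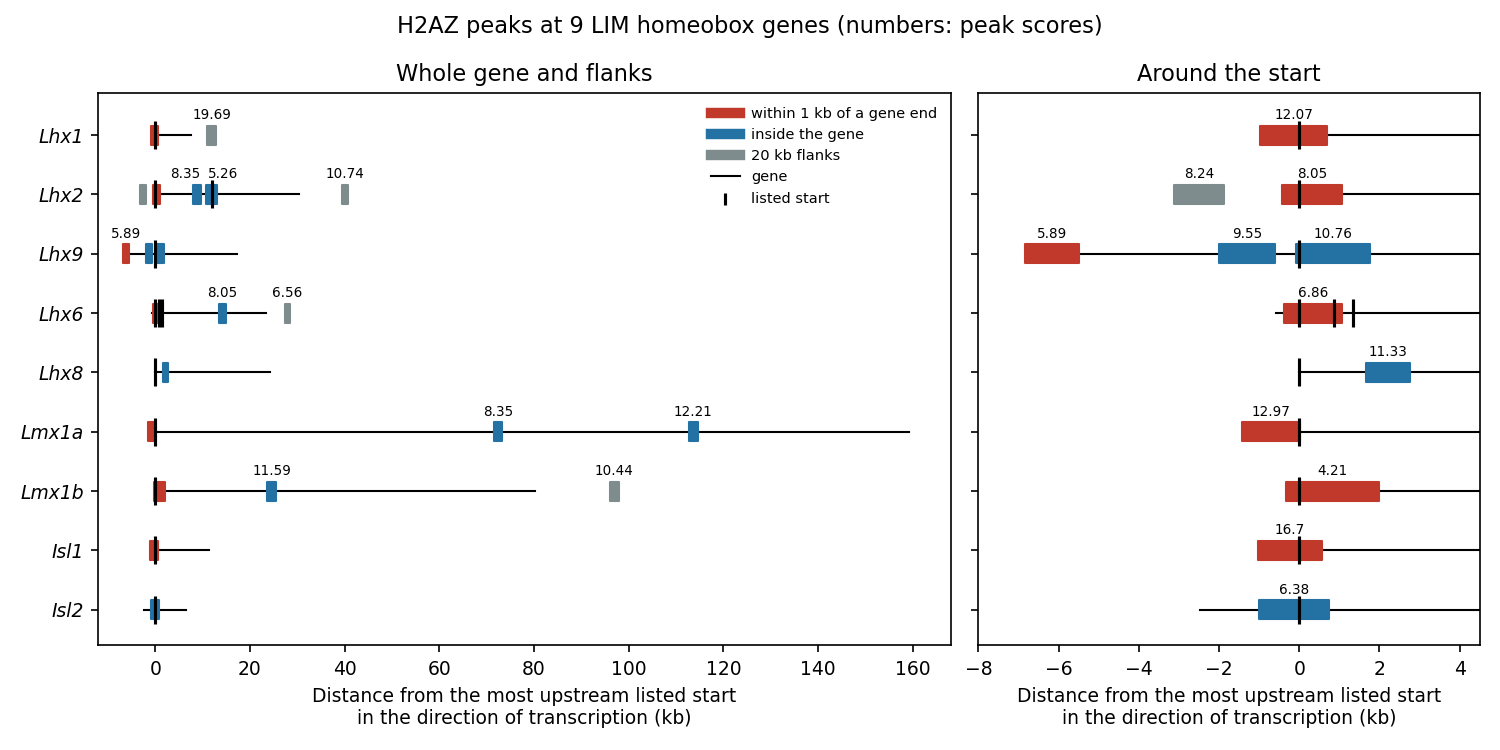
Peaks (bars, to scale) of the 9 LIM homeobox genes with a listed start, against distance in kb from the most upstream listed start in the direction of transcription, for the whole gene (left) and near the start (right); numbers are peak scores, lines genes and ticks listed starts. Lhx8 is the gene with no bar on its tick, the Lmx1a bar ends just past its tick, and the Lmx1b bar extends mostly downstream.

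The placement of start peaks varied from gene to gene. Of the 10 covered starts, 4 had the midpoint of the peak downstream and 6 upstream, and over 11162 covered starts of protein-coding genes 56.0% had it downstream, a difference that was not tested. Over those starts the median reach was 1062 bp upstream and 1122 bp downstream. Isl1, Isl2, Lhx1 and the downstream start of Lhx2 came near to the upstream figure, with 975 to 1211 bp, and below the downstream one, with 558 to 954 bp. Lhx9 and Lmx1a were the most lopsided, with 84 bp upstream at Lhx9 and 30 bp downstream at Lmx1a. The Lmx1b peak was also lopsided, with 337 bp upstream.

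Peaks inside the gene were frequent in this family. An interior peak, one that overlaps the gene without reaching the 1 kb at its ends, was found in 7 of 10 members, against 13.8% of all protein-coding genes and 16.5% of those of the members' length range. With the peaks at or above the median score alone it was 1 member, against 6.09%. Several interior peaks were found in Lhx2, Lhx9 and Lmx1a (3 members, against 3.87%). Of the 10 interior peaks 3 covered a listed start, in Lhx2, Lhx9 and Isl2, and 7 did not. An interior peak that covered no start was present in 6 of the 9 members with a listed start, namely Lhx2, Lhx9, Lhx6, Lhx8, Lmx1a and Lmx1b, against 9.27% of genes with a listed start and 10.6% of those in the length range. The 10 interior peaks had scores from 5.26 to 12.21 with a median of 8.95, beside 9.25 over the 4332 interior peaks of protein-coding genes. The medians of interior peaks thus lay close together, whereas those of gene-end peaks were 8.05 and 17.08.

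Flanking peaks were found at a share near that of all genes. A peak in the 20 kb flanks was found at 4 of 10 members, Lhx1, Lhx2, Lhx6 and Lmx1b, against 44.2% of protein-coding genes. At least 1 peak in the gene or its flanks was found at 9 of 10, against 70.3%, and a peak at an end or inside also at 9, against 61.1%. Per gene with its flanks the members had a median of 2.5 peaks, against a median of 1 for all protein-coding genes. The means lay closer together, at 2.2 for the members and 1.53 for all protein-coding genes. With the peaks at or above the median score alone the median number of peaks turned to 0 for the members, against 1. The median gene length was 23.8 kb for the members and 17.2 kb for all protein-coding genes. Over all 22 peaks the median score was 8.95, against 11.93 in the list, and 5 of the 22 reached that list median.

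Genes for long non-coding RNAs lay close to the ends of 5 members, Lhx1, Lhx2, Lhx5, Lhx8 and Lmx1b (1 kb or less), against 9.84% of protein-coding genes. Of the 9 start-covering peaks 4 also covered the start of such a gene, against 9.79% of the 9075 peaks that cover a protein-coding start. They were the Lhx1 peak with Lhx1os, the upstream Lhx2 peak with Gm46736, the downstream Lhx2 peak with Gm27197, and the Lmx1b peak with C130021I20Rik and Gm39790. A non-coding neighbour did not go with a peak in every case. Lhx5 has Gm27199 and Gm31976 within 1 kb, the nearer of them at 119 bp. Lhx8 has AI606473 at 261 bp, and neither Lhx5 nor Lhx8 had a gene-end peak. No gene-end peak of a member was shared with another protein-coding gene (0 of 7), against 27.1% of protein-coding genes with such a peak.

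CpG content at the starts was set beside the peaks because coverage over all genes changed steeply with it. In windows of 300 bases (250 before to 50 after each start), 5.85% of starts with 0 to 4 CpG were covered, 35.1% with 5 to 9, 72.8% with 10 to 14 and 79.6% with 30 or more. Between these, the share was 82.5% with 15 to 19 CpG, 84.6% with 20 to 24 and 82.2% with 25 to 29. Lhx8, with 4 CpG, fell in the lowest class. Its sequence above holds runs of A and of C and few CpG. The uncovered start of Lhx6 had 11 CpG, and the covered starts of that gene 16 and 17. Lhx9 was covered with 6 CpG, and Isl1 had the most of the family, 37. All 10 covered starts of members, which lay under 9 peaks, scored below the median of covered starts in their CpG class. Lmx1a scored 12.97 against 15.51 (10 to 14 CpG), and Lhx9 10.76 against 13.12 (5 to 9 CpG). With 30 or more CpG, Isl1 scored 16.7, Lhx1 12.07 and the upstream Lhx2 start 8.05, against a median of 18.79, and with 20 to 24 CpG, Isl2 scored 6.38 and Lmx1b 4.21, against 17.6.

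**Figure D3:**
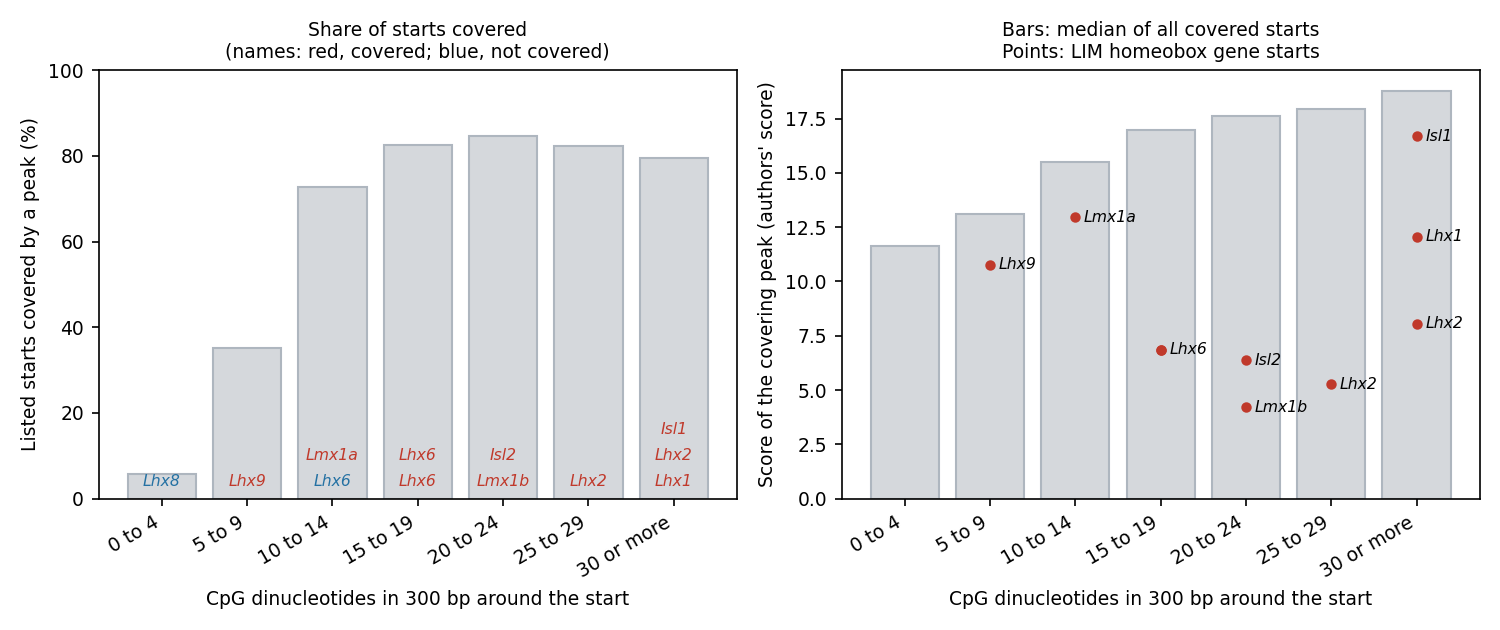
Left, share of listed protein-coding starts covered by a peak (bars, percent) by the number of CpG in 300 bases around the start, with the members' starts named (red covered, blue not covered). Right, median score of the covering peaks in each class (bars) with the members' covered starts as points (the 2 Lhx6 starts share 1 peak and 1 point); every point lies below the top of its bar.

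Short motifs were searched on both strands of the same windows. TAATTA, a core sequence of LIM homeodomain sites, was found at 0 of the 12 listed member starts and at 4.53% of all listed starts. GGGCGG, the GC box, was found at 5 of 12, against 46.2%, and TATAAA at 1, a start of Lhx6, against 12.6%. Of the 12 member starts 10 were covered by a peak, those with GGGCGG all among them and that with TATAAA not. Among all covered starts the shares were 2.38% for TAATTA, 67.5% for GGGCGG and 6.02% for TATAAA. A match describes letters only.

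Among the remaining genes of the family, Lhx3 and Lhx4, which act in pituitary and motor neuron development, the pattern was split. Lhx3 had no peak at 2 listed starts or within 20 kb. Lhx4 had 1 peak, chr1:155741154-155743709, of score 8.95, inside the gene as the table draws it and over the listed start.

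Genes for LIM cofactors had gene-end peaks in 7 of 10 cases, against 55.4% of protein-coding genes, with a median score of 13.42. The genes for Ssbp proteins, which stabilise Ldb complexes, all had one, with Ssbp2 at 27.14, Ssbp4 at 20.88 and Ssbp3 at 10.76. Of the LIM-only genes, whose products compete for Ldb proteins, Lmo1 had a score of 16.7 and Lmo4 of 13.42, while Lmo2 and Lmo3 had no gene-end peak but an interior peak each (19.09 and 8.35). Of the Ldb genes, which encode the bridging factor, Ldb2 had 7.76, and Ldb1 had no gene-end peak but an interior peak of 22.07 over a listed start. Rlim, a ubiquitin ligase gene for these complexes, had 6.86. Each of the 10 cofactor genes thus had a peak at an end or inside (61.1% of protein-coding genes). Several are long, among them Ldb2 (364 kb), Ssbp2 (246 kb) and Lmo3 (219 kb), against a protein-coding median of 17.2 kb. Ldb1, Lmo4 and Ssbp4 are shorter than that median, and no share was taken for genes of this list's lengths. Of the 7 gene-end scores, 2 were above the protein-coding median of 17.08.

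Genes that act beside or after these factors had gene-end peaks in 14 of 22 cases, again against 55.4%, with a median score of 12.38. By group, 4 of 6 genes linked with Lmx1a and Lmx1b had one, that of Fev (13.72) at its 3' end only. The count was 3 of 6 with Lhx6 and Lhx8, and 4 of 6 with Lhx1, Lhx2 and Lhx5. With Isl1 and Isl2 it was 3 of 4 (2 peaks, since Slc18a3 and Chat share that of 8.05). Of the 18 genes of this list with a listed start, 11 had one covered, against 54.1% of protein-coding genes with a listed start. The highest were Satb1 (23.86), a chromatin organiser of interneurons, Nr4a2 (23.27), a dopaminergic neuron factor whose peak also lay at LOC105244150, Reln (22.67), the secreted guide of cortical layering, and Trp73 (21.49), a Cajal-Retzius cell gene. Nkx2-1, a regulator of the medial ganglionic eminence, is among the 8 without and held an interior peak of 6.26, and the remaining 7 had neither. In all, 5 of these 14 scores lay above 17.08, against 0 of 7 for the LIM homeobox genes, a difference that was not tested. Among the 5 is Pitx3, whose peak of 20.7 lay at its 3' end and at Elovl3, and the peak over its start scored 13.74.

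**Figure D4:**
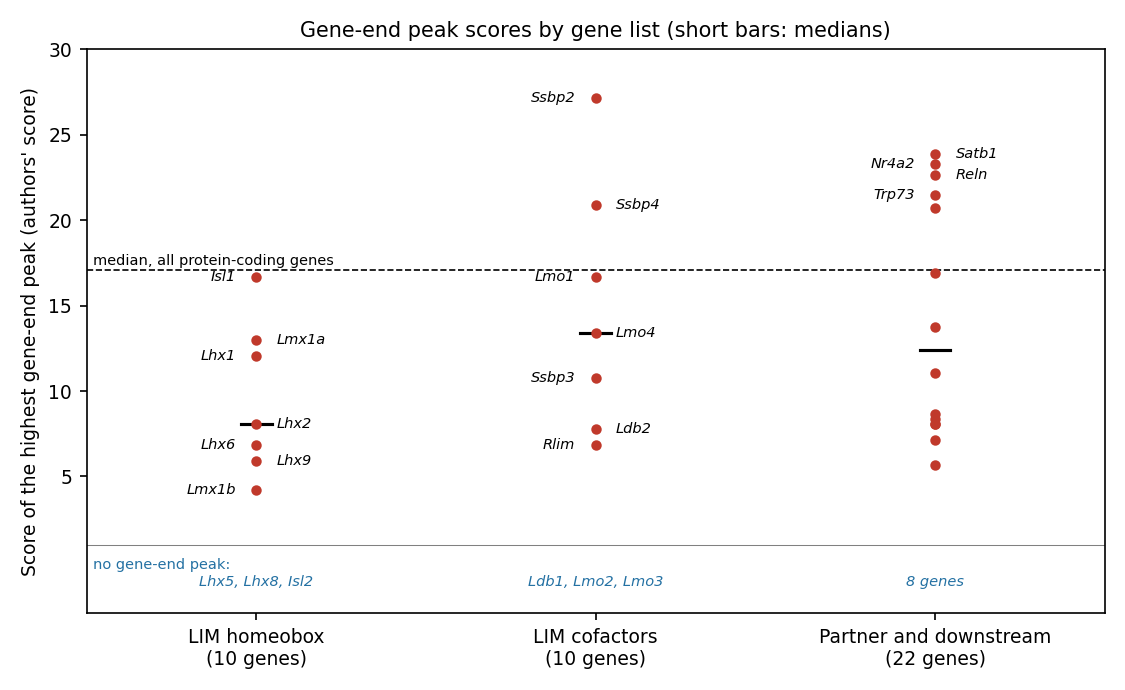
The authors' score of the highest gene-end peak (vertical axis) for each LIM homeobox, cofactor and partner or downstream gene (of the last list the 4 highest are named); short bars are list medians, the dashed line is the median of all protein-coding genes, and the genes without a gene-end peak are given at the bottom, by name or, for the partner and downstream list, by number. LIM homeobox genes lie below the dashed line, with a median of 8.05, and the other lists have genes on both sides of it.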

How the data were processed

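The deposited file is a peak list without a header, with chromosome, start, end, peak name and the authors' score. The score is as deposited, and what it measures is not named. Deposited starts, counted from 0, are printed here from 1. The peak names carry the caller name MACS; its version, settings and control are not stated in the labels or the file. The submitters' processing notes name CASAVA 1.4, FastQC, Bowtie2 2 and the build mm9. Positions were read as GRCm38, since peaks covered 52.5% of listed RefSeq starts of that build and 2.49% when shifted by 1000000 bp. Of 21592 peaks, 46 numbered after chromosome Y were left out. Depth is unknown, and peak numbers run to 32646, beyond the number of peaks listed.

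Overlap of 1 bp or more counted. Gene ends came from the RefSeq gene table (21774 protein-coding genes), and starts, strand and promoter sequence from the RefSeq promoter table of GRCm38.p6, which matched 9 of the 10 members and 17492 protein-coding genes. No test was made. Members and lists were chosen with earlier results of these data known. Named are all members, Lhx3, Lhx4, all cofactors, and of the partner list the 4 highest scores and the first 3 genes without a gene-end peak, some of which are not reported here. Alternatives were other windows, flanks, higher-scoring peaks, merged peaks and peak midpoints. Overlap counting was tested on simulated data (200 of 200 placed peaks found). Python 3.11.15, numpy 2.4.6, pandas 2.3.3, scipy 1.17.1 and matplotlib 3.10.9 were used.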

Additional observations from a re-analysis of the deposited data

How the results depend on the processing

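Of 46 alternative values of the main counts and medians, 37 stayed within 1.5 times the count or within the exact 95% order interval of the median, and 9 did not. For the median gene-end score that interval ran from the lowest to the highest member score (4.21 to 16.7), so staying within it says little about stability. With the peaks at or above the median score alone this median was 12.97, against 8.05 in the main setting, and counted as within. Over all genes the values were 18.77 and 17.08. With the peaks at or above the median score alone, gene-end peaks were found at 3 members (44.4% of protein-coding genes), interior peaks at 1 (6.09%), flank peaks at 1 (31.3%) and covered starts at 3 (43.9%), the median number of peaks per member was 0 (1 over all genes), and gene-end peaks were found at 4 cofactor and 7 partner genes. With windows of 5 kb, 2 members had a flank peak (39.0%), and with flanks of 50 kb, 8 did (65.6%). The cause was not tested beyond the fewer peaks or other windows that these settings use. With windows of 2 kb, 9 members had a gene-end peak (57.3%), Lhx8 among them. The covered-start alternatives were chosen after seeing the data. Depth is unknown, 1 library allows no replicate check, and a gene without a listed peak may have had one in the longer list. No paired analysis was possible because each group has 1 library and no test was made.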

Other observations

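The peak numbers run in order of position on each chromosome, so, if the unlisted peaks follow the same order, gaps in them count peaks of the longer list that were left out of the deposited one. Over the whole list 66.1% of numbers are present. In Lmx1a, numbers 1760 and 1762 overlap the gene and 1761 is missing, so 1 unlisted peak lay between them, inside the gene. In the 20 kb neighbourhood of Lhx6 and up to the next listed peaks no number is missing, the only member for which this holds. Around Lhx5 the listed numbers are 9923 and 9926, so 2 unlisted peaks lay somewhere in the stretch that holds the gene. Around Isl1, 5 unlisted peaks lay between the listed peaks on either side, and around Lhx8 and Lhx9 3 each. Their positions and scores were not analysed here.

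Of all scores 69.6% lay within 0.01 of a whole number of steps of 0.298, where evenly spread scores would give 6.7%. For the 22 peaks of the LIM homeobox genes the number was 12. Scores are therefore often tied, and 411 peaks share the 8.05 of Lhx2 and Lhx6.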
